A study of Mus musculus with 6 samples.

Results

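The genes described here encode subunits of respiratory complexes II to V, measured on 6 Affymetrix arrays of Lineage- c-Kit+ Sca1+ (LSK) cells, the flow-sorted bone marrow fraction that is enriched for blood stem cells. A gene was taken where the platform annotation named it alone for a probe set (the set of probes summarised into 1 value), and its symbol was Sdha, Sdhb, Sdhc, Sdhd, Cyc1 or Cycs, or began with Uqcr, with Atp5, or with Cox and a digit of the nuclear-encoded subunits, pseudogenes left out. This gave 49 genes on 54 probe sets, of 30741 genes on the array, and the rule itself used names and no measured value. They were 4 genes of complex II, 9 of complex III, Cycs, 18 of complex IV, 16 of complex V and Dmac2, which the annotation lists as Atp5sl. Atp5c1, the gene of the gamma subunit of complex V, had no probe set named for it and is not analysed here.

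The 3 knockout samples came from mice with floxed miR-21 alleles and the Mx1-Cre transgene (miR-21flox/flox:Mx1-Cre+). The 3 control samples came from littermates that carried the floxed alleles as well but lacked Cre (miR-21flox/flox:Mx1-Cre-). All mice of both groups received the double-stranded RNA analogue pIpC, 250 µg per injection and 7 injections in all, from an age of 4 to 6 weeks, and LSK cells were sorted 4 weeks afterwards. The Mx1 promoter responds to interferon in many cell types, so that deletion is not confined to LSK cells, and an effect of Cre cannot be told apart from one of the lost microRNA. All 13 LSK and stem cell markers measured lay above the dim level of 1.92, the median of all probe sets, among them Cd34 (8.89 ± 0.02 in knockout and 9.06 ± 0.03 in control arrays, log2, SD, n = 3 each) and Kit (8.15 ± 0.04 in knockout and 8.61 ± 0.07 in control arrays). Of markers of other cells, 1 of 7 for B cells (Ms4a1) and 3 of 10 for T and NK cells (Cd3d, Cd3g and Ncr1) had a mean under that level, while others such as Cd79b (5.30 in knockout and 5.05 in control arrays) and Nkg7 (8.57 in knockout and 8.04 in control arrays) lay above it.

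Complexes II to IV pass electrons from succinate and from ubiquinol to oxygen, cytochrome c carries them from complex III to complex IV, and complex V, the ATP synthase, uses the proton gradient that results to make ATP. Most subunits are encoded in the nucleus, a few of complexes III, IV and V in mitochondrial DNA. Blood stem cells are known to keep low respiration while quiescent and to raise it as they differentiate.

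Nuclear-encoded genes of complexes II to V were higher in knockout LSK cells, by small amounts. Of the 47 members tested, 29 were higher in the knockout, 0 were lower and 18 did not pass (limma, Benjamini-Hochberg adjusted over 19088 genes, threshold 0.05). That is 61.7% of the tested members called higher, where 19.1% of all genes were called higher and 12.0% lower. The change was above 0 in 43 of the 47, and in 65.1% of all genes. The median change of the members, knockout minus control, was 0.25 on the log2 scale, against 0.07 for all genes. Changes of the members called higher ran from 0.19 to 0.59, which is 1.14-fold to 1.5-fold, with a median of 1.27-fold. In all 29 of them the 3 knockout arrays lay above the 3 control arrays. Over all tested members the knockout arrays lay above the control arrays in 35 and below them in 0, and over all genes in 30.9% and 17.1%. Many members were also bright, although the mean levels of those tested ran from 2.45 to 9.39. Of genes with a mean of at least 6 on the log2 scale 29.0% were called higher and 16.2% lower, shares that do not cover the dimmer members. The count depended on single arrays. It was 19 without knockout replicate 1, 16 without knockout replicate 3 and 17 without control replicate 2. Over all genes the count fell as well in these settings, from 3649 to 2632, 2332 and 2558. The members' median change was 0.24, 0.23 and 0.22 there, and 16 members were called higher whichever array was left out. The 29 include Dmac2, which is no subunit of these complexes, and Atp5l, whose probe sets differed in direction. With the probe set on each gene's own chromosome, 28 members were higher and 1, Atp5l, was lower. In sorted cell populations, more cells that hold a transcript and more of it per cell cannot be told apart.

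**Figure D1:**
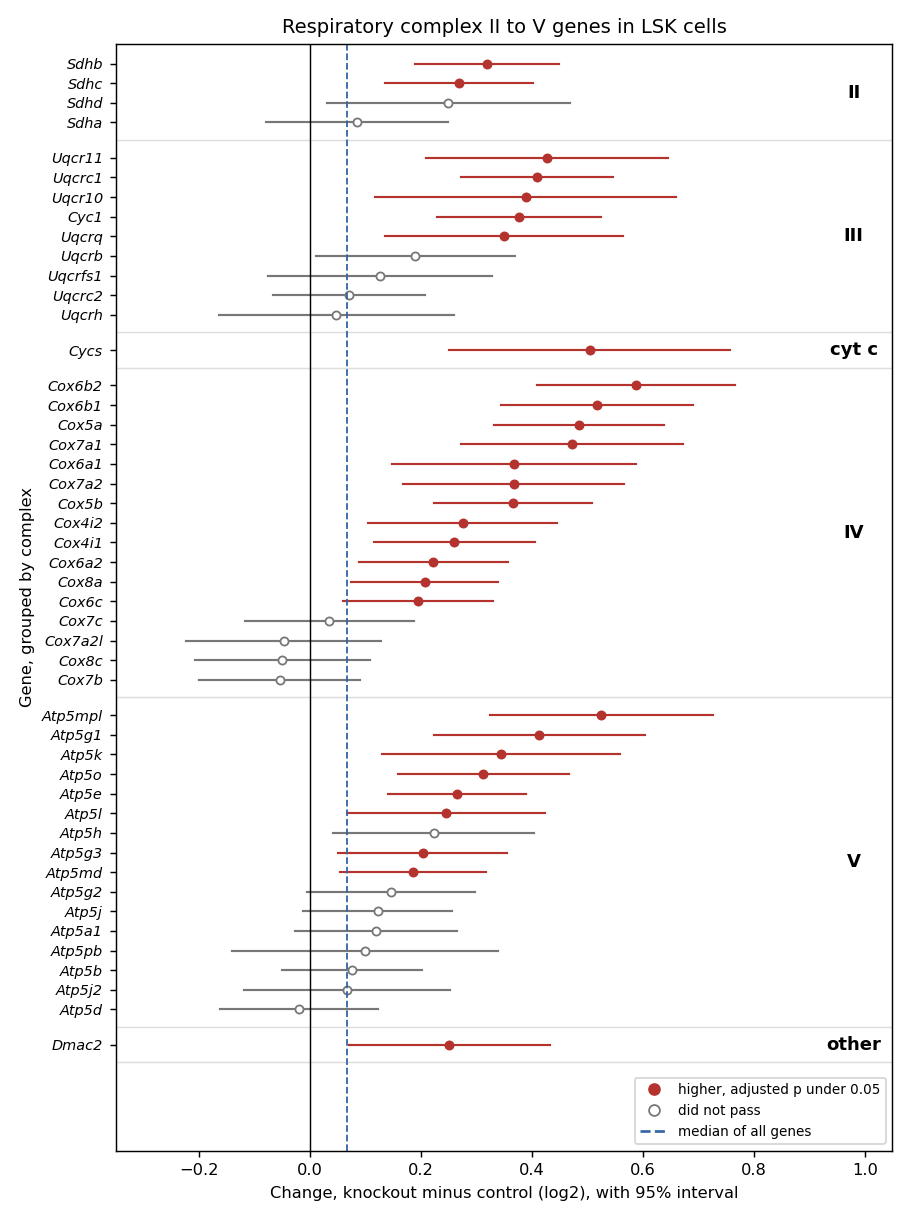
Change (knockout minus control, log2, x axis) of each of the 47 tested genes, grouped by complex down the page, with its 95% interval from limma; filled red points passed at an adjusted p under 0.05, open grey points did not, and the dashed line marks the median of all genes at 0.07. The 29 red points lie between 0.19 and 0.59, and the open points with the lowest changes are Cox7b, Cox8c, Cox7a2l and Atp5d.

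The excess was seen on each knockout array, and its size varied most among the control arrays. With each gene's mean over the 6 arrays subtracted, the median over the tested members was 0.13, 0.09 and 0.17 in knockout replicates 1, 2 and 3, against -0.03, -0.21 and -0.10 in control replicates 1, 2 and 3. Control replicate 2 was lowest in complexes II, III, IV and V alike, at -0.21, -0.26, -0.20 and -0.17. Among the knockout arrays, knockout replicate 2 was lowest in each of these complexes, at 0.05, 0.09, 0.11 and 0.06. For all genes the same medians were 0.03 in each knockout array and between -0.04 and -0.02 in the control arrays. The members' median change was 0.22 without control replicate 2.

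**Figure D2:**
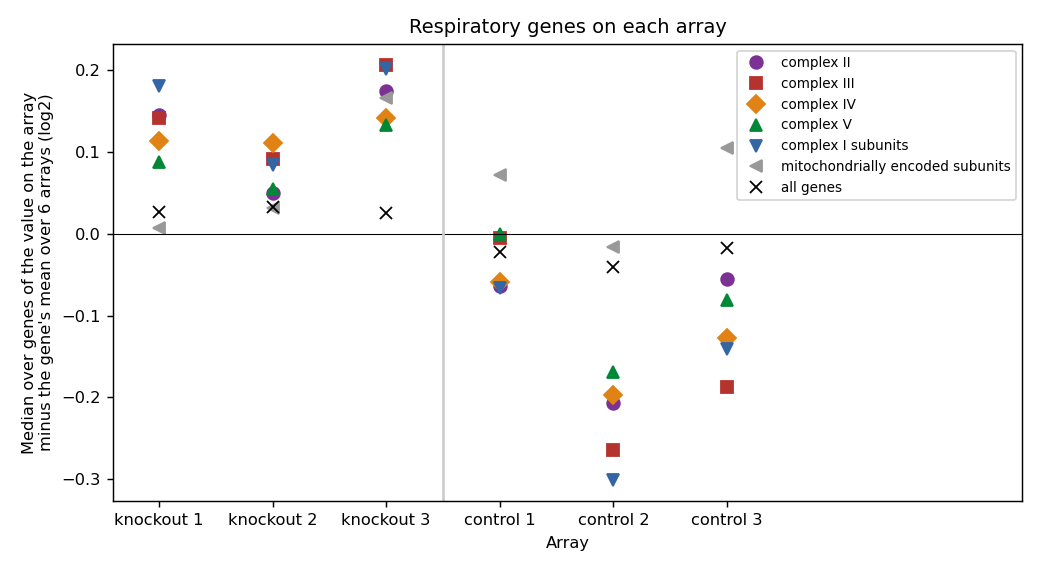
Median over genes of the log2 value on each array (x axis) minus the gene's own mean over 6 arrays (y axis), for complexes II to V, complex I, the mitochondrially encoded subunits and all genes. For complexes II, III, IV and V every knockout array is above 0 and every control array at or below it, with control replicate 2 lowest.

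Complex II, succinate dehydrogenase, feeds electrons from the citric acid cycle into the chain, and 2 of its 4 subunit genes were higher (median change 0.26). The iron-sulphur subunit gene Sdhb had log2 levels of 7.22, 7.20 and 7.25 in the knockout arrays, against 6.96, 6.85 and 6.90 in the control arrays. The membrane anchor gene Sdhc had 5.17, 5.12 and 5.19 in the knockout arrays and 4.93, 4.82 and 4.93 in the control arrays. In both genes the groups were clearly apart, with changes of 0.32 ± 0.06 (SE, limma adjusted p = 0.00362) for Sdhb and 0.27 ± 0.06 (adjusted p = 0.00924) for Sdhc. The second anchor gene, Sdhd, had 5.99, 5.84 and 6.06 in the knockout arrays and 5.81, 5.50 and 5.82 in the control arrays. Its groups did not overlap but the difference of 0.25 did not pass (limma adjusted p = 0.0805). The flavoprotein gene Sdha, which holds the catalytic site, had 6.97, 6.90 and 6.99 in the knockout arrays and 6.95, 6.73 and 6.92 in the control arrays. Its groups overlapped, and the 95% interval of its change ran from -0.08 to 0.25.

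Complex III, the cytochrome bc1 complex, passes electrons from ubiquinol to cytochrome c. Of its 9 members 5 were higher, and the other 4 had changes above 0 that did not pass (median of all 9, 0.35). The small accessory subunit gene Uqcr11 had the highest change, with 6.66, 6.58 and 6.76 in the knockout arrays against 6.45, 6.07 and 6.20 in the control arrays, a difference of 0.43 ± 0.10 (SE, limma adjusted p = 0.0103). The core protein gene Uqcrc1 followed, with 8.52, 8.51 and 8.61 in the knockout arrays against 8.19, 8.08 and 8.14 in the control arrays (0.41 ± 0.06, limma adjusted p = 0.00141). The control arrays of Uqcr11 were widely spread, those of Uqcrc1 were not, and in neither gene did the groups overlap. Cyc1, which encodes the haem-bearing cytochrome c1, was higher by 0.38 (adjusted p = 0.00306), and the accessory subunit genes Uqcr10 and Uqcrq by 0.39 and 0.35.

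The partner of Uqcrc1 in the core, Uqcrc2, did not pass. It had 6.97, 6.87 and 7.00 in the knockout arrays and 6.90, 6.83 and 6.89 in the control arrays, with a 95% interval of the change from -0.07 to 0.21. The hinge protein gene Uqcrh had 7.78, 7.61 and 7.77 in the knockout arrays and 7.87, 7.51 and 7.64 in the control arrays, so that the highest array of all was a control. Uqcrfs1, the gene of the Rieske iron-sulphur protein, was at 0.13 (limma adjusted p = 0.309) and Uqcrb at 0.19 (adjusted p = 0.0992). Uqcr10 and Uqcrq kept no call when knockout replicate 1, knockout replicate 3, control replicate 2 or control replicate 3 was left out, with changes of 0.28 to 0.42 for Uqcr10 and 0.26 to 0.33 for Uqcrq. In each of these 4 cases the count for complex III was 3.

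Cycs, the gene of cytochrome c, had 8.72, 8.60 and 9.0 in the knockout arrays, against 8.19, 8.16 and 8.45 in the control arrays. The knockout arrays were spread over a wider range than those of most members but all lay above the controls, and the change was 0.50 ± 0.11 (SE, limma adjusted p = 0.00951). These values belong to a probe set whose ID names chromosome 19, whereas the RefSeq table places Cycs on chromosome 6. The Cycs probe set with chromosome 6 in its ID had 7.22, 7.08 and 7.27 in the knockout arrays and 6.90, 6.77 and 6.95 in the control arrays. It was higher by 0.32 and passed as well, when every probe set brighter than the dim level was fitted (limma adjusted p = 0.0222; in that fit 11.5% of 32985 probe sets were called higher and 13.4% lower).

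Complex IV, cytochrome c oxidase, reduces oxygen to water. Its catalytic core is encoded in mitochondrial DNA, and the nuclear subunits measured here surround it and are known to tune its assembly and activity. Of 18 members 16 were tested, 12 were higher, and the other 4 missed the threshold (median change 0.27). Several of these subunits exist as a general form and a form known from particular tissues, and such forms are described side by side. Levels of different genes are not compared, since each probe set has its own brightness.

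The subunit gene Cox6b2, known for its expression in testis, had the highest change of all members. It had 6.36, 6.35 and 6.33 in the knockout arrays against 5.92, 5.62 and 5.74 in the control arrays (0.59 ± 0.08 SE, 1.5-fold, limma adjusted p = 8.34e-04). The general form, Cox6b1, had 7.94, 7.92 and 8.08 in the knockout arrays against 7.55, 7.33 and 7.5 in the control arrays (0.52 ± 0.08, adjusted p = 0.00137). Both forms were higher and well apart between the groups. Of 8 testis germ cell markers 6 were under the dim level (Cyct, the testis cytochrome c, among them), and neither of the other 2 passed.

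Cox5a, an early partner in assembly, had 7.87, 7.81 and 7.99 in the knockout arrays and 7.45, 7.33 and 7.44 in the control arrays, a change of 0.48 ± 0.07 (SE, limma adjusted p = 0.00102). Cox5b was higher by 0.37 and Cox6c by 0.20. The general form Cox6a1 had 8.12, 8.07 and 8.22 in the knockout arrays and 7.95, 7.56 and 7.80 in the control arrays (0.37). Its heart and muscle form Cox6a2 had 3.90, 3.97 and 3.90 in the knockout arrays and 3.64, 3.70 and 3.76 in the control arrays (0.22). Both passed, Cox6a1 at a limma adjusted p of 0.0199 and Cox6a2 at 0.0206.

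The same held for subunit 4 and subunit 7a. Cox4i1 had 7.64, 7.61 and 7.69 in the knockout arrays and 7.47, 7.30 and 7.38 in the control arrays (0.26, limma adjusted p = 0.0151). Cox4i2, a form known from lung and from responses to low oxygen, had 4.19, 4.41 and 4.41 in the knockout arrays and 4.02, 4.04 and 4.12 in the control arrays (0.28, adjusted p = 0.0227). In Cox4i2 knockout replicate 1 lay close to the controls. Cox7a2 had 9.17, 9.05 and 9.21 in the knockout arrays and 8.91, 8.59 and 8.82 in the control arrays (0.37, limma adjusted p = 0.0133). Its heart and muscle form Cox7a1 had 3.94, 3.79 and 3.6 in the knockout arrays and 3.37, 3.30 and 3.24 in the control arrays (0.47, adjusted p = 0.0044). Of 7 muscle and heart markers tested, 1 was higher (Tnni3, 0.25) and 0 were lower. That is 14.3% higher, where 19.1% of all genes were. The summed linear levels of these markers were 80.9 to 89.0 in knockout arrays and 73.6 to 79.0 in control arrays.

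The third relative of subunit 7a, Cox7a2l, which is known to join complexes III and IV in supercomplexes, did not pass. It had 7.28, 7.18 and 7.27 in the knockout arrays and 7.43, 7.15 and 7.29 in the control arrays, with a 95% interval of the change from -0.22 to 0.13. Cox7b had 7.16, 7.07 and 7.14 in the knockout arrays and 7.12, 7.27 and 7.14 in the control arrays, the lowest change of all tested members at -0.05 (interval -0.20 to 0.09). Cox7c was at 0.03 with an interval of -0.12 to 0.19. The upper bounds for Cox7b, Cox7c and Cox7a2l lay under the median change of the members, 0.25. So did those of other members that did not pass, among them Cox8c (0.11), Uqcrc2 (0.21), Atp5b (0.20) and Atp5d (0.12).

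Cox8a had 8.10, 8.11 and 8.12 in the knockout arrays and 7.98, 7.85 and 7.89 in the control arrays (0.21, limma adjusted p = 0.0267). Its relative Cox8c, known from testis, had 2.35, 2.46 and 2.47 in the knockout arrays and 2.47, 2.58 and 2.38 in the control arrays, and did not pass. The remaining 2 members of complex IV were under the dim level and were not tested. They were the muscle form Cox8b, with 1.80, 1.95 and 1.81 in the knockout arrays and 1.59, 2.09 and 1.83 in the control arrays, and the testis form Cox7b2, with 0.90, 1.0 and 0.91 in the knockout arrays and 1.15, 0.97 and 1.2 in the control arrays. The calls on Cox6a2, Cox6c and Cox8a were each lost on leaving out any of 5 of the 6 arrays (changes of 0.15 to 0.23), and that on Cox4i2 on leaving out any of 4 (0.24 to 0.27). The call on Cox4i1 was lost without knockout replicate 3 or control replicate 2 (0.24 and 0.22) and that on Cox6a1 without knockout replicate 3 (0.33), and the count for complex IV was 6 without knockout replicate 3 and 7 without control replicate 2.

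**Figure D3:**
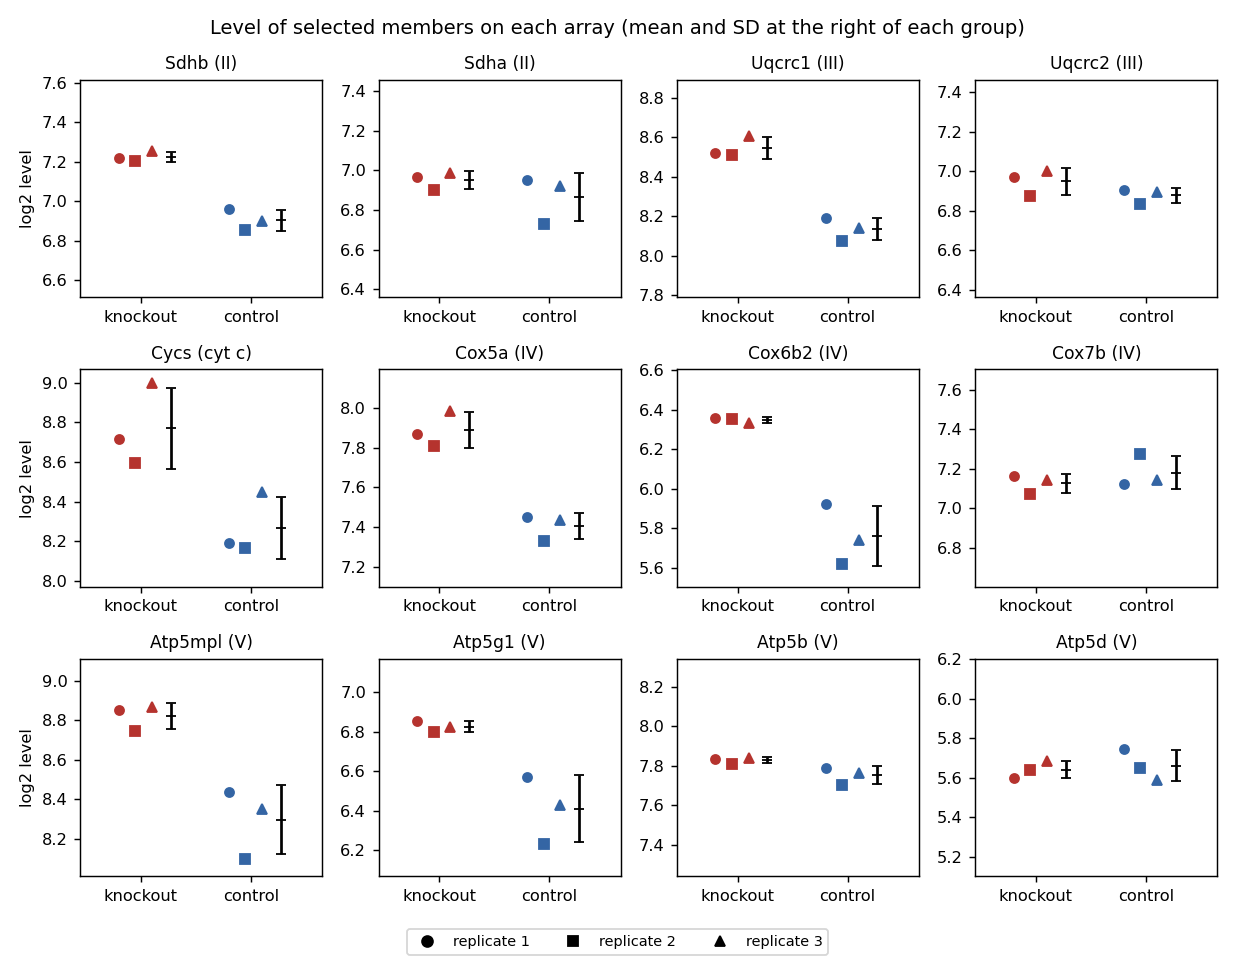
Log2 level (y axis, each panel spanning the same range) of 12 members on the 3 knockout arrays (red) and the 3 control arrays (blue), with the mean and SD of each group in black and the replicate shown by the symbol. Sdhb, Uqcrc1, Cycs, Cox5a, Cox6b2, Atp5mpl and Atp5g1 do not overlap between the groups, whereas Sdha, Uqcrc2, Cox7b and Atp5d overlap and Atp5b is apart by a narrow gap.

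Complex V consists of a catalytic F1 head and a membrane part with the rotating c-ring, joined by a stalk. Of 16 members 8 were higher and 8 missed the threshold. Their median change, 0.19, was the lowest of the 4 complexes. Atp5mpl, a small membrane subunit, had the highest change, with 8.85, 8.75 and 8.87 in the knockout arrays against 8.44, 8.10 and 8.35 in the control arrays (0.53 ± 0.09 SE, limma adjusted p = 0.00272). The e subunit gene Atp5k (0.34), the stalk gene Atp5o (0.31), Atp5e (0.27), which encodes the epsilon subunit, and Atp5md (0.19), a subunit known to hold synthase dimers together, were higher too.

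The c-ring subunit is encoded by 3 genes whose mature proteins are known to be alike. Atp5g1 had 6.85, 6.80 and 6.83 in the knockout arrays and 6.57, 6.23 and 6.43 in the control arrays (0.41 ± 0.08 SE, limma adjusted p = 0.00633). Atp5g3 had 7.10, 7.03 and 7.14 in the knockout arrays and 6.99, 6.80 and 6.87 in the control arrays (0.20, adjusted p = 0.0470). Atp5g2 had 7.74, 7.74 and 7.82 in the knockout arrays and 7.73, 7.55 and 7.58 in the control arrays (0.15, adjusted p = 0.127). The 3 genes thus had changes above 0, of which Atp5g1 and Atp5g3 passed, and whether the changes differ among the genes was not tested.

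The catalytic subunits had small changes. Atp5b, the beta subunit gene, was at 0.08 with a 95% interval of -0.05 to 0.20, and Atp5a1, the alpha subunit gene, at 0.12 with an interval of -0.03 to 0.26. Atp5d, the delta subunit gene, had 5.60, 5.64 and 5.68 in the knockout arrays and 5.74, 5.65 and 5.59 in the control arrays, and was at -0.02. The f subunit gene Atp5j2 had 4.92, 5.07 and 5.15 in the knockout arrays and 5.09, 4.86 and 4.98 in the control arrays, with an interval from -0.12 to 0.25. Atp5h (0.22, limma adjusted p = 0.0625), Atp5j (0.12) and Atp5pb (0.10), which encode parts of the stalk, did not pass. The calls on Atp5g3 and Atp5md were each lost on leaving out any of 5 arrays (changes of 0.16 to 0.23) and that on Atp5k on leaving out any of 4 (0.28 to 0.35). The count for complex V was 4 without knockout replicate 1, without knockout replicate 3 or without control replicate 2, 5 without knockout replicate 2 or control replicate 3, and 5 with each array centred on its median.

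Atp5l, the g subunit gene, was called higher on its brightest probe set in the fit of genes. Another of its probe sets was called lower in the fit of all probe sets, where the brightest did not pass (limma adjusted p = 0.0702). The brightest had 8.36, 8.38 and 8.54 in the knockout arrays and 8.22, 8.05 and 8.28 in the control arrays (0.24, limma adjusted p = 0.0430), and its ID names chromosome 5 although the RefSeq table places Atp5l on chromosome 9. A probe set with chromosome 9 in its ID had 4.97, 4.83 and 4.92 in the knockout arrays and 5.21, 5.24 and 5.32 in the control arrays. There every knockout array lay below the control arrays (-0.35, adjusted p = 0.00832 in the fit of all probe sets), and the other probe set on chromosome 9 was at -0.14 and did not pass. Over the array, 99.6% of 23301 probe sets with a placed gene had the gene's chromosome in their ID. The call on the brightest probe set was also lost on leaving out any of 5 arrays (0.18 to 0.28), so that the direction of Atp5l is uncertain. For Atp5g2, which was likewise measured brightest off its own chromosome, the probe set on its own chromosome was at 0.18 (adjusted p = 0.123 in the fit of all probe sets).

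**Figure D4:**
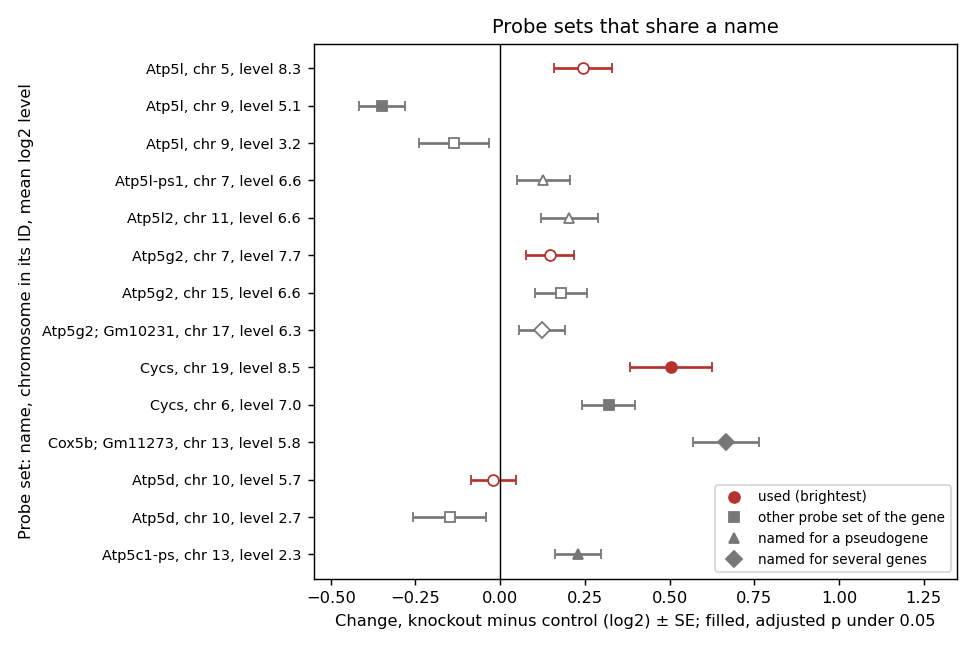
Change (knockout minus control, log2, ± SE, every probe set brighter than the dim level in the fit, x axis) of probe sets that share a member's name, labelled with the chromosome in the probe set's ID and its mean log2 level; filled symbols passed at an adjusted p under 0.05. The 2 Atp5l probe sets on chromosome 9 lie below 0 and the brighter one on chromosome 5 above it, while both Cycs probe sets lie above 0.

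Dmac2, known as an assembly factor of complex I and not a subunit of complex V, fell under the choice by its older symbol. It had 5.73, 5.70 and 5.62 in the knockout arrays and 5.57, 5.44 and 5.28 in the control arrays (0.25, limma adjusted p = 0.0414), with the call lost on leaving out any of 5 arrays (0.18 to 0.28).

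Promoters were set beside these values because members of different complexes moved in the same direction. Nuclear respiratory factor 1 (NRF1) is a transcription factor known to bind promoters of respiratory genes. Of the 49 members, 37 had a promoter in the RefSeq table (GRCm38.p6, 250 bases before to 50 after the start). The letters GCGCATGCG, read on both strands, stood in 7 of these (18.9%), against 2.61% of 17491 protein-coding genes. Of members called higher 6 of 21 held them, of members that did not pass 1 of 14. The letters of the YY1 motif, AAGATGGCG, stood in 3 member promoters (8.11%, against 2.14%), and those of the ETS family, CCGGAAGT, in 4 (10.8%, against 5.69%). The YY1 letters were held by 1 of 21 members called higher (Dmac2, no complex V subunit) and by 2 of 14 that did not pass (Atp5j and Atp5j2). The ETS letters were held by 2 of 21 and 2 of 14. Whether these shares differ by call was not tested for any of the 3 motifs. The NRF1 letters overlap their own reverse complement, so that a site can match on both strands. A match is a run of letters in a window, not a measured binding site. Windows around the NRF1 letters are shown for 5 of the 7 genes that held them, 4 called higher and Atp5g2, which did not pass. They read 5′ to 3′ on the strand of the gene, with the NRF1 letters of either strand in capitals. The windows are Cycs (chr6:50566582-50566670, minus strand, letters from base -61), Uqcr11 (chr10:80406818-80406866, minus strand, from -5), Cox6a1 (chr5:115349071-115349160, minus strand, from -162), Atp5k (chr5:108434400-108434489, minus strand, from -50) and Atp5g2 (chr15:102671048-102671129, minus strand, from -42).
Cycs: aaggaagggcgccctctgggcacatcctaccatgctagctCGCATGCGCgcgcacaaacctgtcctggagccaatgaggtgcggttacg
Uqcr11: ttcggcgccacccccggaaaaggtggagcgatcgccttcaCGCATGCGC
Cox6a1: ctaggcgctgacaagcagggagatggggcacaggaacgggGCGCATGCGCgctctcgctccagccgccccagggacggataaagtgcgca
Atp5k: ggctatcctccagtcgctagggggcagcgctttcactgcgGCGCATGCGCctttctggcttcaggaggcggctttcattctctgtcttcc
Atp5g2: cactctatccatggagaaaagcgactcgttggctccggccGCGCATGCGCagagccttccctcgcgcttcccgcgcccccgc

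In the Cox6a1, Atp5k and Atp5g2 windows the letters of both strands overlap into a run of 10 bases, in Cycs and Uqcr11 they match on the opposite strand of the gene. The other members that held them were Atp5l, whose direction is uncertain, and Uqcrc1, where they lay after the start, from base 31. Several of the members with the highest changes, among them Cox6b2, Cox6b1 and Cox5a, had none of the 3 motifs in this window.

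The transcription factors and cofactors known to act on respiratory genes included genes called in both directions. Of 16 tested 5 were higher and 2 lower, with a median change of 0.03. That is 31.2% higher, where 19.1% of all genes were called higher and 12.0% lower. Nrf1 itself had 4.97, 5.0 and 5.05 in the knockout arrays and 5.07, 5.0 and 4.87 in the control arrays, with an interval of the change from -0.13 to 0.18. Gabpa, the DNA-binding subunit of an ETS family factor, was at -0.07 (limma adjusted p = 0.374), and its partner Gabpb1 was lower (-0.35, adjusted p = 0.00677). The cofactor gene Ppargc1a, a known inducer of mitochondrial genes, was lower, with 2.06, 2.13 and 2.03 in the knockout arrays and 2.52, 2.62 and 2.54 in the control arrays (-0.49, adjusted p = 5.04e-04). Its knockout values lay near the dim level of 1.92. From the same list, the brighter Pprc1 was higher (0.24, limma adjusted p = 0.0495) and Ppargc1b did not pass (-0.08, adjusted p = 0.394). Myc had the highest change of this list at 0.81 ± 0.06 (SE, limma adjusted p = 3.94e-05). Polrmt, the RNA polymerase of mitochondria, was higher by 0.38 and Tfam, which packages and transcribes mitochondrial DNA, by 0.26 (adjusted p = 0.0271).

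Assembly factors help to build the same complexes. Of 37 assembly factors tested 17 were higher and 1 was lower (45.9% higher, where 19.1% of all genes were, median change 0.18). The 3 highest were the complex III factor Uqcc3 (0.47), the complex IV factors Pet100 (0.43) and Coa4 (0.43). The lowest was Ttc19, a complex III factor, with 3.15, 3.04 and 3.24 in the knockout arrays and 3.58, 3.52 and 3.47 in the control arrays (-0.38, limma adjusted p = 0.00367). Cox10 and Sdhaf1, both at -0.13, did not pass. Of 33 complex I subunits 24 were higher and 0 lower (72.7% higher, median 0.30), with Ndufs8 at 0.56 and Ndufv3 at 0.50 highest and Ndufa7 at 0.08 lowest.

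Subunits encoded in mitochondrial DNA were measured alone by 5 probe sets, of which 1 was higher, 1 lower and 3 did not pass (median change 0.09). COX1, which encodes the catalytic subunit of complex IV, had 9.56, 9.59 and 9.72 in the knockout arrays and 9.23, 9.57 and 9.66 in the control arrays, with an interval of the change from -0.11 to 0.38. COX2 was at 0.06 and ND3 at 0.09, and neither passed. ND2 was higher by 0.29 (limma adjusted p = 0.0326) and ND6, the subunit gene on the other DNA strand, was lower (-0.28, adjusted p = 0.0163). The median change of the nuclear genes, 0.25, lay inside the intervals of COX1, ND2 and ND3. It lay above those of ND6 (-0.44 to -0.12) and of COX2 (-0.10 to 0.21), the latter measured near the dim level.

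**Figure D5:**
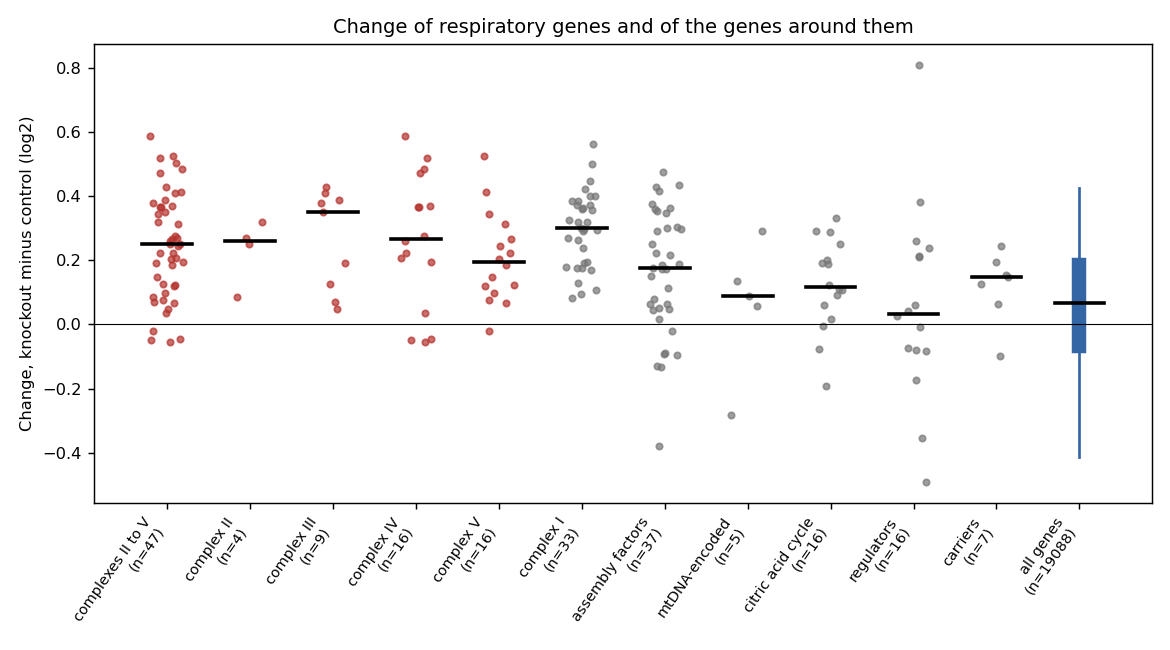
Change (knockout minus control, log2, y axis) of each tested gene of complexes II to V (red), of complex I and of related lists (grey), 1 point per gene, with the median as a black bar; for all genes the thin blue line spans the 5th to 95th percentile and the thick one the middle quartiles. The medians of complexes II, III, IV and V are 0.26, 0.35, 0.27 and 0.19, those of complex I 0.30, of the mitochondrially encoded subunits 0.09 and of all genes 0.07.

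Markers of other cell states moved on the same arrays, and their part in these changes was not tested. For comparison, 19.1% of all genes were called higher and 12.0% lower. Of 15 myeloid progenitor markers 14 were higher and 1 lower, with Ms4a3 at 3.20, Elane, neutrophil elastase, at 2.06 and Mpo, myeloperoxidase, at 0.97. Their summed linear level was 4076 to 4175 in knockout arrays and 2032 to 2148 in control arrays. Of 12 neutrophil markers 11 were higher and 1 lower (summed 508 to 578 in knockout arrays and 235 to 276 in control arrays), with S100a8 at 2.38. Of 13 LSK and stem cell markers 9 were lower and 1 higher (summed 1497 to 1524 in knockout arrays and 1896 to 1944 in control arrays), with Hlf at -0.88 and Kit at -0.46. Of 19 mitosis genes 16 were higher and 0 lower (summed 2049 to 2213 in knockout arrays and 1497 to 1598 in control arrays), with Aurka at 0.88 and Mki67 at 0.24. Among the control arrays, control replicate 2 had the lowest summed level for the neutrophil and mitosis lists, and control replicate 3 for the myeloid progenitor and the LSK lists.

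Of 6 mast cell and basophil markers 5 were higher and 1 lower (summed 176 to 213 in knockout arrays and 89.6 to 96.0 in control arrays), with Mcpt8 at 2.06 highest, Ms4a2 dim. Of 6 megakaryocyte and platelet markers 4 were higher and 0 lower (209 to 214 in knockout arrays and 159 to 166 in control arrays), with Gp6 dim. Of 7 monocyte and macrophage markers 4 were higher and 0 lower (253 to 280 in knockout arrays and 221 to 251 in control arrays), with Adgre1 and Mrc1 dim. Of 5 erythroblast markers 2 were higher and 0 lower (62.2 to 66.9 in knockout arrays and 58.2 to 60.4 in control arrays), with Alas2, the first enzyme of haem synthesis in red cells, dim. Of 6 B cell markers 1 was higher and 1 lower (108 to 112 in knockout arrays and 102 to 106 in control arrays). Of 7 T and NK cell markers 2 were higher and 0 lower (397 to 438 in knockout arrays and 295 to 310 in control arrays). They were Klrb1c (0.55) and Nkg7 (0.53), which is also in the myeloid progenitor list. Nkg7, with means of 8.57 in knockout and 8.04 in control arrays, made up most of the summed T and NK level. These shares, 16.7% for B cells and 28.6% for T and NK cells, stand beside 19.1% of all genes called higher.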

How the data were processed

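Groups and replicate numbers were read from the titles, where samples are named as biological replicates; the sources used here do not say whether a replicate was 1 mouse or several, so p-values measure the spread between these arrays. Labelled cDNA was made from 250 ng of total RNA. The authors deposited log2 values for each array, and the tool RMA is named in the submitters' processing notes; its version and the genome build are not given in the sources used here. RMA makes the intensity distributions of arrays alike, so that a shift shared by most transcripts is removed. The log base was read as 2 from the range, which ended at 11.5. Medians per array were 1.89 to 1.95. Correlations over all probe sets were 0.995 to 0.997 within groups and 0.987 to 0.991 between them. The number of arrays, 3 per group, limits the precision.

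Of 65956 probe sets, 31216 were named for 1 gene by the platform annotation of GEO (names that a RefSeq table of GRCm38.p6 gives as synonyms of 1 gene counted once), 1534 for several and 33206 for none; 23497 had their Entrez ID in that table, which updated 873 symbols. The brightest probe set over all 6 arrays stood for a gene, and genes with a mean under the median of all probe sets (1.92) were left out, which kept 19088. limma 3.58.1 (R 4.3.3; lmFit, eBayes, two-sided) was fitted to all of these and adjusted by Benjamini-Hochberg. A ± after a change is its standard error, after a mean the SD. The method was tested on simulated data. Array values of the named members were given for the 2 highest and 2 lowest changes of each complex, any member called lower and the isoform sets; from other lists, extremes and a few fixed genes are named. Members and lists were chosen with earlier results of these data known.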

Additional observations from a re-analysis of the deposited data

Results flagged for a closer look

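Probe sets that the comparison of genes did not use also carried differences, when every probe set brighter than the dim level was fitted. In that fit 11.5% of 32985 probe sets were called higher and 13.4% lower. An unused Atp5l probe set was lower (-0.35, limma adjusted p = 0.00832). The others that passed, among those with the name of a member or its pseudogene, were higher. The probe set named for both Cox5b and Gm11273 (Cox5b-ps, a pseudogene in the RefSeq table) had 5.92, 6.20 and 6.18 in the knockout arrays and 5.33, 5.44 and 5.54 in the control arrays, higher by 0.67 (limma adjusted p = 0.00266). The Cycs probe set on the gene's own chromosome was higher by 0.32 (adjusted p = 0.0222). Atp5c1-ps, a pseudogene of the gamma subunit gene, was higher by 0.23 (adjusted p = 0.0431), with means of 2.42 in knockout and 2.19 in control arrays, near the dim level. Of the 2 other probe sets named for a pseudogene of Atp5l, Atp5l-ps1 was at 0.13 and Atp5l2 at 0.20, and neither passed.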

How the results depend on the processing

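The median change of the members stayed between 0.22 and 0.28 over all alternatives run, and 15 of the 29 members called higher were called higher in each of them. Among the alternatives that kept all arrays, the count of members called higher ran from 23 (arrays centred on their median, or all probe sets in 1 fit) to 32 (replicate block), and in these 2 low cases the complex V count was 5. Leaving out each array in turn gave 16 to 26 members higher, 3 to 6 in complex III, 6 to 11 in complex IV, 4 to 8 in complex V and 2332 to 3104 of all genes, where 3649 were higher in all. With the probe set on each gene's own chromosome, an alternative chosen after seeing the data, 28 members were higher and 1 lower, since Atp5l turned to -0.35; with the mean of all its probe sets Atp5l was at -0.080. Shorter cores of the motifs stood in 9 member promoters for NRF1 (24.3%, against 4.95% of protein-coding genes), 6 for YY1 (16.2%, against 4.95%) and 13 for ETS (35.1%, against 12.9%). The replicate numbers were not taken as pairs. The correlations of same-numbered arrays' deviations were 0.22, 0.33 and 0.10. The last was under 0.1 and lower than that of knockout replicate 3 with control replicate 1 (0.13). The other correlations of different-numbered arrays lay below 0, from -0.28 to -0.03. With the number as a replicate block 4572 genes were higher and 2639 lower, against 3649 and 2295 without it. Depth is not defined for arrays, and the 2 members under the dim level, Cox8b and Cox7b2, entered only the fit without a filter on dim genes.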

Other observations

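Enzymes of the citric acid cycle and of pyruvate entry supply the chain with electrons. Of 16 tested 5 were higher and 1 lower, with a median change of 0.12. That is 31.2% higher, where 19.1% of all genes and 29.0% of genes with a mean of at least 6 were. Citrate synthase (Cs) had 7.41, 7.56 and 7.39 in the knockout arrays and 7.21, 7.22 and 7.05 in the control arrays, and was higher by 0.29 (limma adjusted p = 0.0158). Idh2, the mitochondrial isocitrate dehydrogenase that uses NADP, was higher by 0.33, and the succinyl-CoA ligase subunit gene Suclg2 was lower (-0.19, adjusted p = 0.0480).

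Of 7 carriers of ADP, phosphate, protons and metabolites across the mitochondrial membranes 2 were higher and 0 lower (median 0.15). That is 28.6% higher, where 19.1% of all genes and 29.0% of genes with a mean of at least 6 were. The ADP/ATP carrier gene Slc25a5 was higher by 0.19 (limma adjusted p = 0.0444) and the channel gene Vdac3 by 0.25 (adjusted p = 0.0290). The phosphate carrier gene Slc25a3, which supplies complex V, was at -0.10 and did not pass.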
